A study of Mus musculus with 9 samples.

Results

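The genes described here are the nuclear genes for subunits of the mitochondrial respiratory chain and of ATP synthase, read in crypt epithelium of the mouse intestine. They were chosen by symbol (the numbered Ndufa, Ndufb, Ndufc, Ndufs and Ndufv genes, Sdha to Sdhd, the Uqcr genes, Cox4 to Cox8 and the Atp5 genes) and by level, a minimum of 1 FPKM in 3 or more of the 9 libraries. FPKM are fragment counts corrected for the length of the transcript and the size of the library, so levels are per length and can be compared between genes. Of 85 rows with such a symbol, 79 met that level, out of 24930 gene symbols in all: 37 genes of complex I, 4 of complex II, 8 of complex III, 13 of complex IV and 17 of complex V. The 6 genes left out were Cox4i2, Cox6a2, Cox7b2, Cox8b, Cox8c and Ndufa4l2. The level itself was part of the choice and is given as a description. The member nearest to the limit was Cox6b2, with 4.75 to 10.4 FPKM over the 9 libraries, and the nearest genes outside it, Cox6a2 and Cox8b, each reached 1 FPKM in 2 libraries.

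The respiratory chain sits in the inner mitochondrial membrane. Complex I takes electrons from NADH and complex II takes them from succinate. Complex III passes them from ubiquinol to cytochrome c, complex IV passes them on to oxygen, and complex V makes ATP from the proton gradient that complexes I, III and IV build. Most subunits are encoded in the nucleus, while the mitochondrial genome encodes a few subunits of the membrane cores. In the intestinal crypt, Lgr5-expressing stem cells are known for active mitochondrial respiration and the neighbouring Paneth cells for a glycolytic metabolism.

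The study compared crypt epithelium carrying 1 induced gain-of-function allele of β-catenin, the transducer of canonical WNT signals, with control crypt epithelium, on days 8, 9 and 10 after induction. Each of 3 groups had 1 library per day: mutant set A, mutant set B and control. By title, set A is heterozygous for the β-catenin allele and set B for that allele and for Cdx2. The library names put CDX2HET beside EXON3 in set A and give EXON3 alone in set B, so titles and library names assign the Cdx2 allele differently, and neutral names are kept. Cdx2 itself, a homeobox factor of intestinal epithelium, had 126, 131 and 144 FPKM in set A and 188, 178 and 196 FPKM in set B, against 139, 114 and 108 FPKM in control. It was higher in set B than in control (0.64, limma, adjusted p = 0.0442) and did not pass in set A (0.16, adjusted p = 0.479). All 3 set B values lay above all 3 set A values, but no tested gene passed for set B against set A. These values do not show which set carries the allele. The labels give no genotype of the control group, no strain, age or sex, no driver of the induced allele and no statement that libraries came from separate animals, although each library name has its own number. Levels are per gene and do not show which exons a transcript holds, so the induced allele was not checked.

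Summed levels ran from 624923 to 755802 FPKM per library, and 1 FPKM stood for 16.7 to 19.2 fragments on each kilobase, as read from the spacing of low values. The set B day-9 library stood apart. It had Xist at 0.1 FPKM, against 27.0 to 39.4 FPKM in the other 8 libraries, and a sum of 41.7 FPKM over Y-linked genes, against 0.0 to 0.047 FPKM in the others. By these genes it had the pattern of male tissue and the others that of female tissue, so sex cannot be told apart from the library. On the first principal component of all genes (43.5% of the variance) it lay at −19.1, while the other 5 mutant libraries lay at 2.57 to 29.96 and the controls at −22.7 to −21.6. Its place near the controls on this component did not hold for stem cell genes. For each of the 10 stem cell genes listed below it had the highest value of the 9 libraries. Igfbp4 was at 153.6 FPKM in it, 52.3 to 88.3 FPKM in the other mutant libraries and at most 29.1 FPKM in control. Rnf43 was at 51.5 FPKM in it, 26.6 to 33.2 FPKM in the other mutant libraries and at most 23.5 FPKM in control. Results that rest on the set B day-9 library are given with and without it. Epcam, which encodes an adhesion protein of epithelial cells, had 715 to 794 FPKM in the mutant libraries and 703 to 761 FPKM in the control libraries.

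The promoters of 4 members are shown because the results below turn on these genes: Cox6a1 had the highest level of all members, Ndufa3 the largest difference between mutant and control libraries, and Cox7a1 and Cox7a2 are alternative forms of 1 subunit. Each runs 5′ to 3′ from 250 bases before to 50 bases after the start of the gene (RefSeq, GRCm38.p6), and capitals mark a match to the motif of NRF1 or YY1.
Cox6a1, chr5:115348909-115349208, minus strand: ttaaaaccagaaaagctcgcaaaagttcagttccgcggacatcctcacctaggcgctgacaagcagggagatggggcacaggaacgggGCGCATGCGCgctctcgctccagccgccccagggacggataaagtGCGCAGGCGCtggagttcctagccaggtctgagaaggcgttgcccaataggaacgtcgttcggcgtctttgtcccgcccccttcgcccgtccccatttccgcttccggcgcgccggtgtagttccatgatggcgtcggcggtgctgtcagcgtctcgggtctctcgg
Ndufa3, chr7:3617123-3617422, plus strand: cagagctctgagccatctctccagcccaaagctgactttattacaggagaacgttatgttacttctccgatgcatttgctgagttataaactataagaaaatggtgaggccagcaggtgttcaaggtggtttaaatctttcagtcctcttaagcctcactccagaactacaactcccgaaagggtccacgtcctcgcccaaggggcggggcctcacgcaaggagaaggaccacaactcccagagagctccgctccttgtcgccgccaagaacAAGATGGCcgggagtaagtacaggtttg
Cox7a1, chr7:30183921-30184220, plus strand: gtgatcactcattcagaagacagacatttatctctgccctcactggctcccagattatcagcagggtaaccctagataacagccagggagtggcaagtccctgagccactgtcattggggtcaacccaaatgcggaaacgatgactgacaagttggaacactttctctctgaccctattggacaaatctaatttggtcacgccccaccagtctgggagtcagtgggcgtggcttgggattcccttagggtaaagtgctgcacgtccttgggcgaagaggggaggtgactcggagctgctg
Cox7a2, chr9:79759804-79760103, minus strand: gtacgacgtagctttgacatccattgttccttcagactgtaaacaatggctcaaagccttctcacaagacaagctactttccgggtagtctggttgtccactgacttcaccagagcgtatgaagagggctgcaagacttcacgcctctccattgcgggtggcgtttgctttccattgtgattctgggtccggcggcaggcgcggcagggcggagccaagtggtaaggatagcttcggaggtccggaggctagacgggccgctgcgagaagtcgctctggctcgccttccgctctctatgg
Cox6a1 held 2 matches to the NRF1 motif and Ndufa3 held 1 match to the YY1 motif and 1 to TATAAA, which is not in capitals, while neither promoter of the Cox7a pair held a match to any of the 6 motifs searched.

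Promoters of 65 of the 79 members were in the RefSeq table, beside 9454 of all genes tested and 27025 genes in all, and 6 motifs were searched on both strands, none of them contained in another. The NRF1 motif, which is GCGCA and GCGC with any base between them, is named for a regulator of nuclear genes for mitochondrial proteins and was in 17 member promoters (26.2%), against 11.7% of the tested genes and 5.19% of all promoters. The motif AAGATGGC of YY1, a zinc finger factor that binds at many start sites, was in 9 member promoters (13.8%), against 5.53% of the tested genes and 3.19% of all promoters. The ETS motif CCGGAAGT was in 7.69% of member promoters, 9.52% of the tested genes and 4.31% of all promoters. The other 3 motifs were at or below the share of tested genes or close to it: the TCF/LEF motif CTTTGAT, bound by the partners of β-catenin, was in 1.54% of member promoters (Ndufa5 alone) against 3.23% of the tested genes and 4.29% of all, the E-box CACGTG in 7.69% against 12.0% and 8.09%, and TATAAA in 9.23% against 9.08% and 15.7%. At least 1 of the NRF1, ETS and YY1 motifs was in 29 member promoters (44.6%), against 24.4% of the tested genes. A match is a description of the letters in this window and no measure of binding.

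The subunit genes were among the most abundant transcripts of the crypt epithelium. By mean level over the 9 libraries, 70 of the 79 lay in the top 10% of the 12097 genes tested (those that met the same minimum), at a median rank of 341, with Cox6a1 highest at rank 41. The median of the mean levels was 270 FPKM over the members and 12.2 FPKM over all tested genes. Complex I had the lowest median level (183 FPKM), followed by complex II (311 FPKM), complex III (391 FPKM), complex V (579 FPKM) and complex IV (589 FPKM). In all 9 libraries complex I was lowest, then II, then III, while the order of the upper pair varied. Complex IV was above V in 5 of the 6 mutant libraries, all but the set B day-8 library, and below V in all 3 controls, a difference given without a test.

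**Figure D1:**
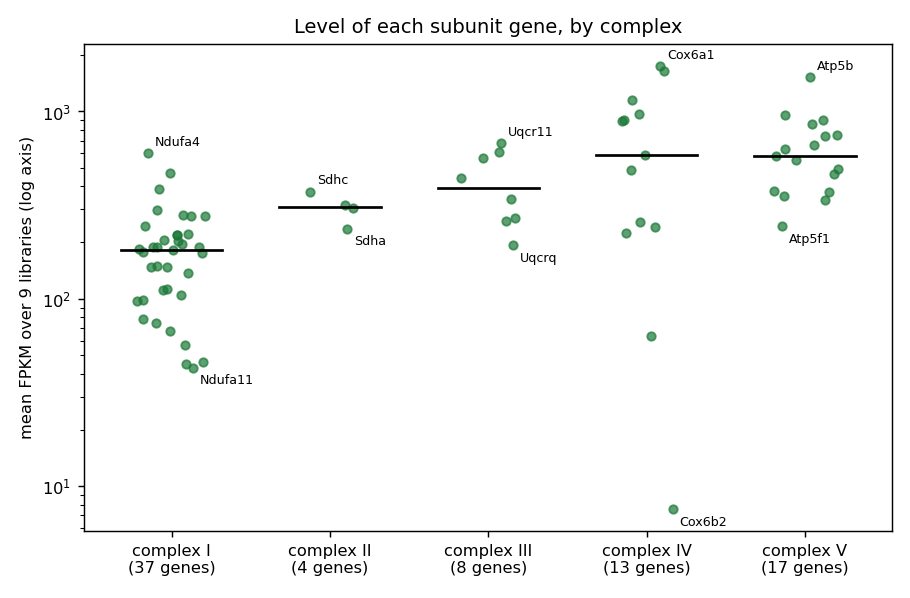
Mean level of each subunit gene over the 9 libraries (vertical axis, FPKM, log scale), by complex (horizontal axis); each point is 1 gene and each bar the median of its complex. Complex I has the lowest median, 183 FPKM, and the genes of complex IV spread from Cox6b2 at 7.55 FPKM to Cox6a1 at 1745 FPKM.

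Subunits of 1 complex did not have equal transcript levels. Complex II, the smallest, was the most even, from Sdha, the flavoprotein that oxidises succinate, at 237 FPKM to Sdhc, a membrane anchor, at 373 FPKM, a range of 1.58-fold. Complex III ranged 3.50-fold, from Uqcrq at 193 FPKM to Uqcr11 at 675 FPKM, both small accessory subunits. Complex V ranged 6.28-fold, from the stalk subunit gene Atp5f1 at 244 FPKM to Atp5b, the catalytic β subunit of the head, at 1531 FPKM. Complex I ranged 14.0-fold, from Ndufa11, a membrane-arm subunit, at 42.9 FPKM to Ndufa4 at 599 FPKM. Ndufa4 was first assigned to complex I and is now known as a subunit of complex IV. Complex IV ranged 231-fold, a width set by the minor isoform genes Cox6b2 and Cox7a1.

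Comparing both mutant sets with control asks whether respiratory chain transcripts differed after the β-catenin allele was induced. No subunit gene passed the test in either direction (0 of 79, limma, adjusted p under 0.05 over 12097 genes), where 140 of all tested genes passed (1.16%). At an unadjusted p under 0.05, 4 members were higher in the mutants and 0 lower: Ndufa1, Ndufa3, Ndufa6 and Cox7c, 5.06% of the members against 21.0% of all tested genes (10.1% higher and 10.8% lower). The differences leaned one way and were small. The log2 difference was above 0 for 67 of the 79 members (84.8%, against 49.7% of all tested genes), its median was 0.06 (−0.00 over all tested genes), and it ran from −0.11 for Cox6b2 to 0.25 for Ndufa3. When libraries were rescaled to equal totals, 75 of 79 were above 0, in a fit that also moved the median of all genes. Over the members the median absolute log2 difference was 0.07, against 0.12 over all tested genes. These are bulk libraries, in which fewer cells of a type and less RNA per cell cannot be told apart.

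The depth and replicates bounded these differences. The 95% interval of the difference between both sets and control lay within 1.5-fold either way for 78 of 79 members (98.7%, against 77.1% of all tested genes). The exception was Cox7a1, whose interval ran from −0.72 to 0.53 on the log2 scale. These intervals are from the fit with all libraries. Without the set B day-9 library the median difference was 0.11, against 0.06 with it, and intervals of that fit are not given. The median SD of log2 levels within groups was 0.12 for the members and 0.13 for all tested genes, lowest for Cox8a at 0.05 and highest for Cox7a1 at 0.44, with Cox6b2 next at 0.31.

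Over all members, the summed level was 32098 ± 2221 FPKM in the mutants (SD, n = 6) and 30204 ± 788 FPKM in control (SD, n = 3). The sums held 4.49% to 5.38% of the mutant tables and 4.16% to 4.64% of the control tables, so the ranges overlapped. Such shares, like rescaling to equal totals, also depend on the other genes in the total. The sum of 14 Paneth cell genes was 20660 to 47930 FPKM in the mutants and 73340 to 122300 FPKM in control. The part of that sum in the shares was not tested. Library by library, the median log2 difference from the control mean was −0.04, 0.15 and 0.12 in set A on days 8, 9 and 10 and was 0.12, −0.09 and 0.16 for set B, against −0.02, −0.04 and 0.07 in control. The set A day-8 library and the set B day-9 library thus lay below all 3 controls, and the other 4 mutant libraries lay above all 3 controls. The set B day-9 library was the lowest of the 6 mutants for 50 of 79 members (63.3%), where the same held for 24.6% of all tested genes. The set A day-8 library was lowest for 24 members (30.4%, against 16.7% of tested genes).

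**Figure D2:**
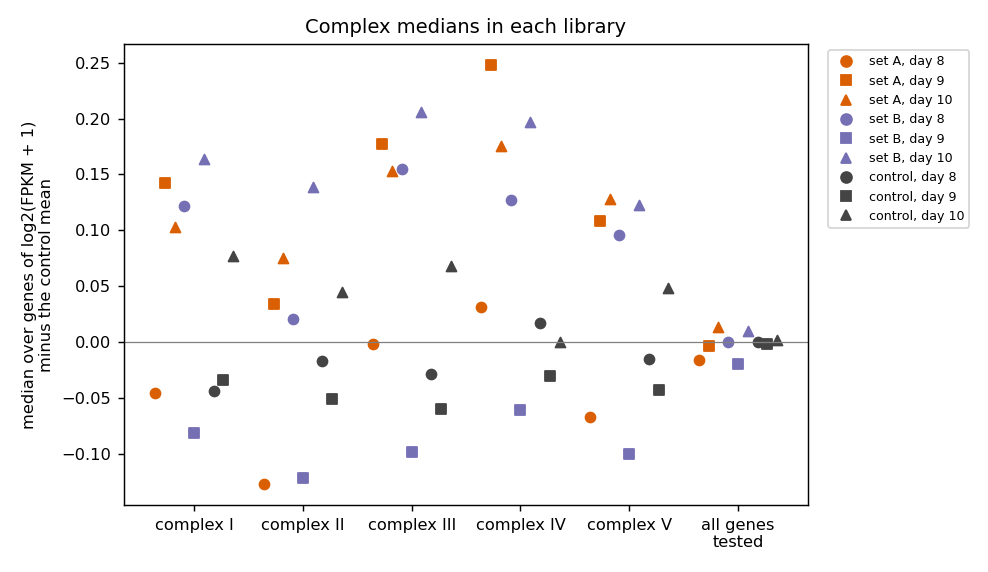
Median over the genes of each complex of log2(FPKM + 1) minus the control mean (vertical axis), in each library (points; colour is the group, shape the day), with all 12097 tested genes at the right. For complex IV, 5 of the 6 mutant libraries lie above all 3 controls, and in every complex the set B day-9 library lies below 0.

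Leaving out the set B day-9 library gave larger differences. Then 72 of 79 members were higher in the mutants (91.1%, against 50.2% of 12000 tested genes) and the median log2 difference was 0.11. Of the members, 17 had an unadjusted p under 0.05 (21.5%, against 27.5% of tested genes), all of them higher (14.2% of tested genes). In this fit 1 member passed, Ndufs4, where 995 of 12000 tested genes passed (8.29%). With all 9 libraries, 2 members, Ndufa3 and Cox7c, had every mutant library above every control library, where 5.19% of tested genes did, and 0 had every mutant library below, where 7.37% did. Without the set B day-9 library, 11 members had every mutant library above every control (9.90% of tested genes) and 0 below (10.3%): Ndufa2, Ndufa3, Ndufb6, Ndufb9, Ndufs4, Ndufs5, Cox6a1, Cox7a2, Cox7c, Cox8a and Atp5g2.

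Complex I held the largest single differences, all in accessory subunits, and 31 of its 37 genes were positive with a median of 0.06. The 7 core genes of the matrix arm had a median of 0.03 with 5 above 0. The 11 Ndufb genes, of the membrane arm, had a median of 0.03 with 8 above 0. Ndufb4c, which is annotated as a processed pseudogene, is counted among these 11. The 19 accessory subunit genes of the other families had a median of 0.10 with 18 above 0. Ndufa5 was the exception at −0.00. Ndufa4, now known as a subunit of complex IV, is counted among these 19.

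Ndufa3, a small accessory subunit of complex I, had 484, 544 and 462 FPKM in set A on days 8, 9 and 10 and 501, 457 and 529.9 FPKM in set B, against 378, 433 and 438 FPKM in control. Every mutant library was above every control library, with the smallest gap between the set B day-9 library and the day-10 control. The difference was 0.25 ± 0.09 on the log2 scale and missed the threshold (adjusted p = 0.153).

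Ndufs4, an accessory subunit of the matrix arm whose loss causes Leigh-like disease in mice, had 42.0, 49.8 and 48.6 FPKM in set A and 49.7, 38.2 and 55.1 FPKM in set B, against 39.9, 38.2 and 41.0 FPKM in control. Only the set B day-9 library lay inside the control range. The difference was 0.24 ± 0.11 with all libraries (adjusted p = 0.270) and 0.31 ± 0.08 without that library, where Ndufs4 passed (adjusted p = 0.0460). It no longer passed without that library when libraries were rescaled to equal totals (adjusted p = 0.0751) or the day was a block (adjusted p = 0.0704).

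Ndufa6, a LYR-motif subunit that binds the mitochondrial acyl carrier protein, had 226, 279 and 242 FPKM in set A and 266, 248 and 275 FPKM in set B, against 213, 210.1 and 235 FPKM in control. The groups overlapped in the set A day-8 library alone (log2 0.22 ± 0.08, adjusted p = 0.184). Ndufa1, a membrane-arm subunit needed for assembly, averaged 81.7 ± 7.15 FPKM in the mutants (SD, n = 6) and 71.3 ± 5.48 FPKM in control (SD, n = 3), a difference of 0.19 ± 0.08 (adjusted p = 0.228). At the other end, Ndufb2 averaged 45.5 ± 2.28 FPKM in the mutants and 47.5 ± 3.48 FPKM in control (−0.06 ± 0.07), and Ndufs1, the largest core subunit, which carries several iron-sulfur clusters, averaged 66.3 ± 3.42 FPKM and 68.9 ± 6.02 FPKM in control (−0.05 ± 0.07). Neither passed, and both overlapped the controls. At the ends of the level range, Ndufa4 averaged 608 ± 53.5 FPKM in the mutants and 581 ± 18.0 FPKM in control, and Ndufa11 averaged 43.6 ± 2.94 FPKM and 41.6 ± 1.26 FPKM in control.

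**Figure D3:**
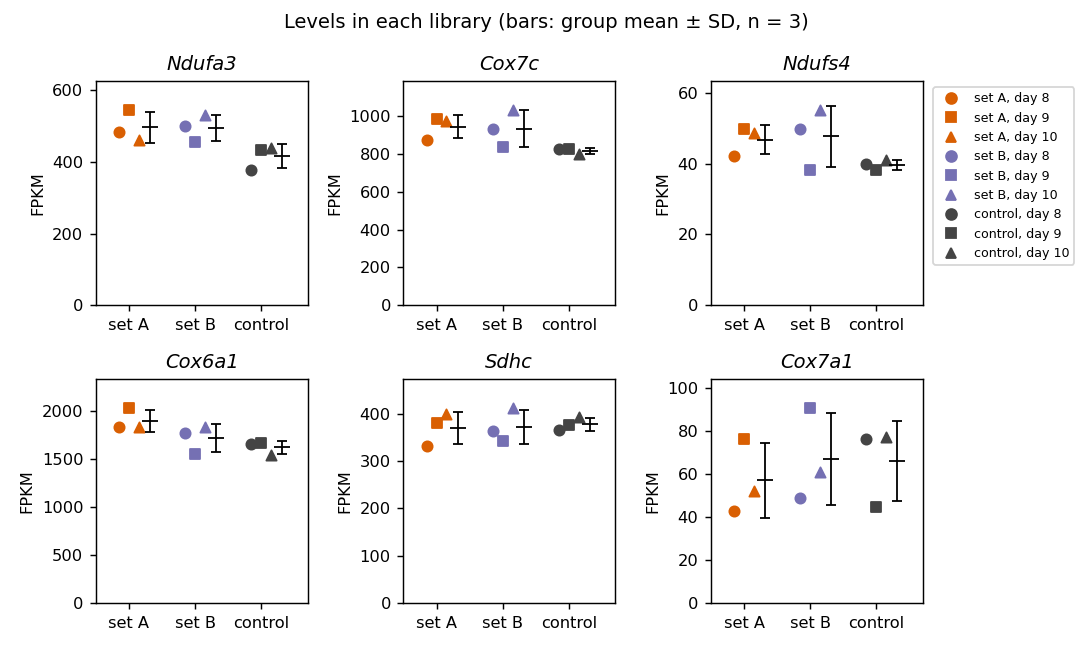
Levels (vertical axis, FPKM, from 0) of 6 subunit genes in each library of set A, set B and control (horizontal axis); shapes mark the day and bars the group mean ± SD, n = 3. Ndufa3 and Cox7c have every mutant library above every control, Ndufs4 and Cox6a1 all but the set B day-9 library, and Sdhc and Cox7a1 overlap the controls.

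Ndufb4 shared its sequence with a second row. Its coding transcript matched Ndufb4c at 100% over 390 bases in GENCODE M21, and Ndufb4c, annotated there as a processed pseudogene, was itself listed at 48.1 to 70.0 FPKM, so the split between them is uncertain. Summed, they had 255 ± 12.5 FPKM in the mutants and 248 ± 7.98 FPKM in control. Of 77 members with a coding transcript in that reference, 13 had a copy of at least 98% identity over at least 80% of the shorter of the paired sequences, and 3 of those copies were rows of the table. The other 2 were low: Mir688, which matches 75 bases of Atp5g2, was at most 1.41 FPKM, and BC002163, a copy of Ndufs5, at most 0.813 FPKM. The copy of Atp5j, Gm11966, likewise matches only 87 bases of it.

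Complex II, which also serves the tricarboxylic acid cycle, had a median difference of −0.00, with 2 of 4 genes above 0. Sdhc had 332, 379.7 and 398 FPKM in set A and 362, 343 and 412 FPKM in set B, against 365, 376 and 392 FPKM in control. Mutant libraries lay on both sides of the control range (log2 −0.03 ± 0.08, 95% interval −0.22 to 0.16). Sdhd, the other membrane anchor, averaged 311 ± 35.5 FPKM in the mutants and 291 ± 6.95 FPKM in control (0.09 ± 0.10). Sdhb, the iron-sulfur subunit, averaged 318 ± 24.8 FPKM in the mutants and 317 ± 20.3 FPKM in control, and Sdha averaged 236 ± 12.1 FPKM and 238 ± 12.6 FPKM in control. The intervals of all 4 lay within 1.5-fold either way, and the signs for Sdha, Sdhb and Sdhc were not stable, since each changed in at least 4 of 17 other settings.

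Complex III had a median difference of 0.11, with 7 of 8 genes above 0. Uqcrc1, a core protein of the matrix side, had 541, 583 and 666 FPKM in set A and 600.4, 480.5 and 655 FPKM in set B, against 543, 484 and 528 FPKM in control. Both the lowest and the highest of the 9 values were in mutant libraries (0.17 ± 0.11, adjusted p = 0.414). Uqcr10, a small accessory subunit, averaged 633 ± 62.6 FPKM in the mutants and 555 ± 29.4 FPKM in control (0.18 ± 0.10, adjusted p = 0.316). Uqcrq, which binds cytochrome b, averaged 201 ± 17.8 FPKM in the mutants and 178 ± 4.85 FPKM in control (0.17 ± 0.08, adjusted p = 0.295). Uqcr11 averaged 693 ± 66.5 FPKM in the mutants and 639 ± 31.8 FPKM in control. The gene of the catalytic iron-sulfur protein, Uqcrfs1, averaged 270.2 ± 28.2 FPKM in the mutants and 271 ± 12.3 FPKM in control (−0.01 ± 0.10), and the sign changed in 7 of the 17 other settings.

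Complex IV had the highest median difference of the 5 complexes, 0.12, with 11 of 13 genes above 0. The 2 below 0 were its minor isoforms Cox7a1 and Cox6b2. In set A its median log2 difference from the control mean was 0.03, 0.25 and 0.18 on days 8, 9 and 10, and in set B it was 0.13, −0.06 and 0.20, against 0.02, −0.03 and 0.00 in control. Its summed level was 9445 ± 697 FPKM in the mutants and 8630.2 ± 39.5 FPKM in control.

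Cox7c, a small accessory subunit in the membrane, had 876, 988 and 974 FPKM in set A and 932, 837 and 1032 FPKM in set B, against 827, 825 and 799.6 FPKM in control. Every mutant library was above every control, the set B day-9 library by the least (0.20 ± 0.08, adjusted p = 0.214, and 0.0725 without that library). Cox6a1 had 1837, 2030.1 and 1827 FPKM in set A and 1769, 1553 and 1831 FPKM in set B, against 1650.5, 1666 and 1544 FPKM in control. Again the set B day-9 library alone lay inside the control range (0.15 ± 0.08, adjusted p = 0.298). Cox5a, which joins Cox4i1 early in assembly, averaged 613 ± 56.5 FPKM in the mutants and 542 ± 10.3 FPKM in control (0.17 ± 0.09, adjusted p = 0.307). Cox4i1, the subunit through which ATP and ADP act on the enzyme, averaged 1005 ± 99.8 FPKM in the mutants and 898 ± 29.1 FPKM in control (0.16 ± 0.09, adjusted p = 0.361). None of these passed.

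**Figure D4:**
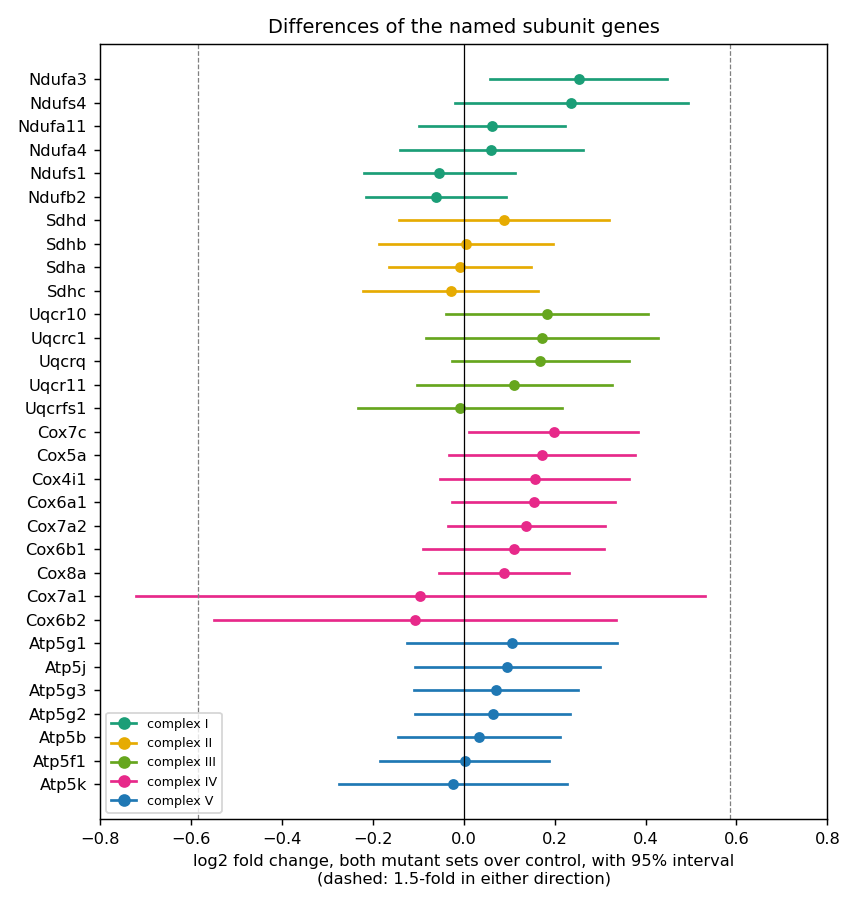
Log2 fold change of both mutant sets over control with its 95% interval (horizontal axis) for the 31 subunit genes named by rule (vertical axis), coloured by complex; dashed lines mark 1.5-fold either way. Of these genes Cox7a1 alone has an interval that crosses a dashed line, from −0.72 to 0.53.

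Several subunits of complex IV exist in tissue-specific forms, and the crypt epithelium had the broadly expressed form of each. Cox4i2, the form of lung and low oxygen, made up at most 0.011% of the summed Cox4i1 and Cox4i2 level in any library. The muscle forms Cox6a2 and Cox8b made up at most 0.125% and 0.1% of their pairs. Cox6b2, the form of testis, averaged 7.39 ± 1.87 FPKM in the mutants and 7.87 ± 0.989 FPKM in control, 0.632% ± 0.213 and 0.715% ± 0.101 of its pair. Its partner Cox6b1 averaged 1185 ± 102 FPKM in the mutants and 1094 ± 23.6 FPKM in control, and Cox8a averaged 1679 ± 94.0 FPKM and 1577 ± 25.6 FPKM in control.

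Cox7a1, known as the form of heart and skeletal muscle, was the exception. It had 42.6, 76.2 and 52.2 FPKM in set A and 48.9, 90.7 and 61.1 FPKM in set B, against 76.2, 44.5 and 77.2 FPKM in control. The 3 groups overlapped throughout (−0.10 ± 0.27, adjusted p = 0.871). Its share of the summed Cox7a1 and Cox7a2 level was 18.8% ± 4.96 in the mutants and 21.3% ± 4.90 in control, highest in the set B day-9 library at 27.7% and lowest in the set A day-8 library at 14.8%. Cox7a2, the form of most tissues, averaged 266 ± 19.5 FPKM in the mutants and 241 ± 0.949 FPKM in control (0.14 ± 0.08, adjusted p = 0.331).

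The summed level of 15 enterocyte genes differed between the same libraries. It was 3887, 6153 and 5841 FPKM in set A and 4144, 10820 and 6458 FPKM in set B, against 10190, 4731 and 6651 FPKM in control. The set B day-9 library was highest in both this sum and Cox7a1, and the set A day-8 library was lowest in both. A part of enterocyte content in the Cox7a1 level was not tested. The sum of 9 striated muscle genes was 92.6 FPKM in the set A day-10 library, 14.5 to 20.7 FPKM in the other 5 mutant libraries and 8.39 to 13.1 FPKM in control. In that day-10 library Cox7a1 was at 52.2 FPKM, inside the range of the other libraries, while the muscle forms Cox6a2 and Cox8b had their highest values, 2.29 FPKM and 1.74 FPKM.

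Complex V had a median difference of 0.06 with 16 of 17 genes above 0. By part, the median was 0.03 for the 5 genes of F1 (the head with its central stalk) and 0.03 for 4 genes of the peripheral stalk. It was 0.07 for 3 genes of the c-ring and 0.08 for 5 other membrane subunits. Atp5b had 1457, 1491 and 1668 FPKM in set A and 1592, 1415 and 1639 FPKM in set B, against 1537, 1444 and 1538 FPKM in control, with mutant libraries on both sides of the controls (0.03 ± 0.08). Atp5j, coupling factor 6 of the stalk, averaged 343 ± 28.3 FPKM in the mutants and 321 ± 30.6 FPKM in control (0.10 ± 0.09). Atp5f1 averaged 244 ± 19.1 FPKM and 243 ± 15.6 FPKM in control. Atp5k, the e subunit at the contact of paired synthases, was the only gene of the complex below 0, with 375 ± 44.3 FPKM in the mutants and 379 ± 16.0 FPKM in control (−0.02 ± 0.11). The signs of Atp5f1 and Atp5k each changed in 5 of 17 other settings.

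The c-ring, the rotor that protons turn, is built from 1 protein that 3 genes encode with different import sequences. Atp5g1 averaged 772 ± 82.5 FPKM in the mutants and 713 ± 25.6 FPKM in control (0.11 ± 0.10, adjusted p = 0.580). Atp5g2 averaged 670.1 ± 44.0 FPKM and 640.3 ± 31.3 FPKM in control, and Atp5g3 averaged 876 ± 58.6 FPKM and 833 ± 44.8 FPKM in control. Their shares of the summed level differed between groups by less than the SD within them: 33.2% ± 1.28 in the mutants and 32.6% ± 0.987 in control for Atp5g1, 28.9% ± 1.11 and 29.3% ± 1.34 in control for Atp5g2, and 37.8% ± 1.34 and 38.1% ± 2.22 in control for Atp5g3.

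**Figure D5:**
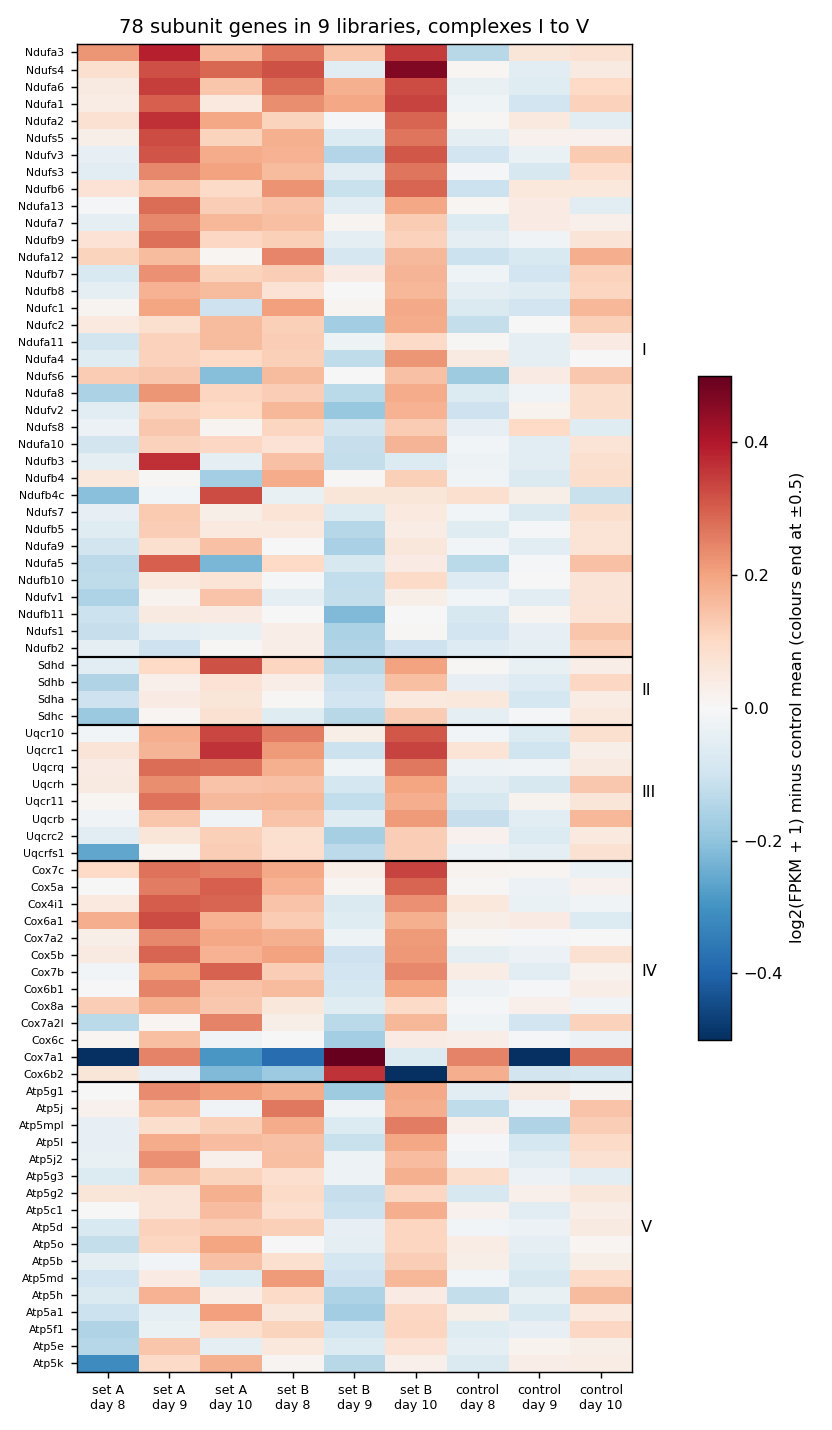
Log2(FPKM + 1) minus the control mean (colour, ending at ±0.5) for 78 of the 79 subunit genes (rows, by complex and by size of the difference) in 9 libraries (columns: set A, set B, control). The set A day-8 library and the set B day-9 library are blue for more genes than the other mutants, and Cox7a1 and Cox6b2 vary most within groups.

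Each mutant set was also compared with control alone. In set A, 0 of 79 members passed against control (0.215% of tested genes) and 2 had an unadjusted p under 0.05 (16.7% of tested genes). There 63 were above 0 (79.7%, against 49.4% of tested genes) and the median was 0.06. In set B, 0 passed (0.628% of tested genes), 3 had an unadjusted p under 0.05 (16.5% of tested genes), 63 were above 0 and the median was 0.06. Both comparisons use the same 3 control libraries. Without its day-9 library, set B had 75 members above 0 (94.9%, against 50.5% of tested genes) and a median of 0.15. Of the members, 12 had an unadjusted p under 0.05 (24.1% of tested genes), 11 of them higher. Again 0 passed (4.03% of tested genes), and the smallest adjusted p was 0.0593, for Ndufs4.

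Set B against set A asks whether the sets that differ in the Cdx2 label differed in these genes. No member passed (0 of 79, and 0 of all tested genes, 0.0%), and 0 members had an unadjusted p under 0.05, where 3.11% of tested genes did. The lowest difference was that of Cox6a1, which averaged 1717 ± 146 FPKM in set B and 1898 ± 115 FPKM in set A (SD, n = 3 each), −0.15 on the log2 scale with a 95% interval from −0.35 to 0.06. The highest was that of Cox7a1, which averaged 66.9 ± 21.5 FPKM in set B and 57.0 ± 17.3 FPKM in set A, 0.22 with an interval from −0.50 to 0.95. For 77 of 79 members the interval lay within 1.5-fold either way (80.8% of tested genes), the others being Cox6b2 and Cox7a1. The lean depended on single libraries and on scaling. With all libraries 31 members were above 0 (39.2%, where 52.0% of tested genes were). Without the set B day-9 library 65 were (82.3%, where 54.2% of tested genes were). Without the set A day-9 library 49 were above 0, and 47 without the set A day-10 library. Library weights gave 58, and rescaling all libraries to equal totals gave 12.

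Over days 8 to 10, fitted as 1 slope shared by the groups, 0 members passed (0.0% of tested genes) and 0 had an unadjusted p under 0.05 (3.22% of tested genes). The slope was above 0 for 73 of 79 members (92.4%, against 55.2% of tested genes). Its median was 0.05 per day on the log2 scale, against 0.01 over all tested genes. The highest was that of Cox7a2l, a factor that joins complexes into supercomplexes, at 0.11 ± 0.05. Summed levels of all genes were 644810, 689732 and 706691 FPKM on day 8 in set A, set B and control, 630707, 624923 and 639315 FPKM on day 9, and 726553, 755802 and 747478 FPKM on day 10. After rescaling to equal totals 22 members had a slope above 0 and the median was −0.02, so the direction over days depended on the scaling. With 1 library per group and day, day and library cannot be told apart within a group.

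Genes that build or feed the chain were read from lists. No assembly factor passed: 0 of 14 for complex I, with 4 above 0 and a median of −0.04, and 0 of 33 for complexes II to V, with 17 above 0 and a median of 0.00. The smallest p among them was that of Ecsit, an assembly factor of complex I that also acts in innate immune signalling, which averaged 38.4 ± 2.60 FPKM in the mutants and 46.6 ± 2.02 FPKM in control (−0.27 ± 0.07, adjusted p = 0.0874). Bcs1l, which inserts the iron-sulfur protein into complex III, averaged 15.1 ± 0.344 FPKM in the mutants and 17.3 ± 1.19 FPKM in control (−0.19 ± 0.06, adjusted p = 0.116). All 6 mutant libraries lay below all 3 controls for both genes, as for 7.37% of all tested genes.

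Of 20 genes for electron carriers, metabolite exchange and coupling, 0 passed and the median was 0.01. Slc25a4, which encodes the ADP/ATP carrier typical of heart and muscle, averaged 22.8 ± 4.41 FPKM in the mutants and 12.6 ± 2.83 FPKM in control (0.80 ± 0.19, adjusted p = 0.0815), and it passed without the set B day-9 library (0.86, adjusted p = 0.0456). Every mutant library lay above every control for Slc25a4, with 16.2 FPKM the lowest mutant value and 15.9 FPKM the highest control value. The same held for the sum of 9 striated muscle genes, 14.5 to 92.6 FPKM in the mutants and 8.39 to 13.1 FPKM in control. A part of muscle RNA in the Slc25a4 level was not tested. Slc25a5, the paralog of Slc25a4, averaged 923 ± 125 FPKM in the mutants and 857 ± 59.6 FPKM in control (0.10 ± 0.12).

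Regulators of mitochondrial gene expression had 0 of 16 passing, 3 above 0 and a median of −0.06. The smallest p was that of Ppargc1a, a coactivator of mitochondrial biogenesis, at 6.20 ± 1.01 FPKM in the mutants and 4.42 ± 0.919 FPKM in control (0.41 ± 0.14, adjusted p = 0.161). Nrf1 itself averaged 10.2 ± 0.544 FPKM in the mutants and 11.5 ± 0.666 FPKM in control (−0.16 ± 0.06, adjusted p = 0.196). Of 17 genes of the tricarboxylic acid cycle, 0 passed, 6 were above 0 and the median was −0.03. Mdh2, mitochondrial malate dehydrogenase, had the smallest p, with 1262 ± 159 FPKM in the mutants and 1007 ± 96.2 FPKM in control (0.32 ± 0.12, adjusted p = 0.196). Among 7 tested genes of the response to low oxygen that bear on respiration, 1 passed, Vegfa, a growth factor for vessels, which was higher in the mutants at 24.2 ± 4.73 FPKM, against 12.4 ± 0.866 FPKM in control (0.88 ± 0.15, adjusted p = 0.0417). Without the set B day-9 library Slc2a1, a glucose transporter, passed as well (0.43, adjusted p = 0.0267). None of the 13 mitochondrially encoded subunits was a row of the table used here.

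Among the cell type lists, the Paneth cell list held most of the genes that passed for both sets against control. Of 14 Paneth cell genes, 7 fell in the mutants, where their sum was 20660 to 47930 FPKM, against 73340 to 122300 FPKM in control. In this comparison 1.16% of all tested genes passed in either direction. Of 10 stem cell genes, 1 rose, Igfbp4, with 7 of the 10 above 0, while Olfm4 was at −0.41 and did not pass. The sum of these 10 was 1330, 946.6 and 788 FPKM in set A on days 8, 9 and 10 and 1058, 1680 and 1005 FPKM in set B, against 1170, 1341 and 1304 FPKM in control. Among the mutants the set B day-9 and set A day-8 libraries had the highest sums. The same libraries had the lowest medians of the subunit genes, and a link between these was not tested. No gene of the enterocyte, goblet cell, tuft and enteroendocrine, or T cell lists passed for both sets against control. Set A alone had lower Ghrl, the ghrelin gene of enteroendocrine cells, than control (−0.82, adjusted p = 0.0364). Without the set B day-9 library, 9 Paneth cell genes were lower in the mutants and 2 stem cell genes, Igfbp4 and Rnf43, were higher. Of the 12000 genes tested without that library, 8.29% passed in either direction. In that fit 1 gene of each of 3 other lists was also lower in the mutants: Lct, the lactase of enterocytes (−3.45, adjusted p = 0.0277), Clca1 of goblet cells (−2.16, adjusted p = 0.0283) and Cck of enteroendocrine cells (−0.95, adjusted p = 0.0171). The sum of 11 fibroblast and smooth muscle genes was 5.01 to 11.5 FPKM in the mutants and 3.70 to 4.67 FPKM in control. The part of these shifts in cell makeup in the levels of the subunit genes was not tested.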

How the data were processed

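Poly(A) RNA of 9 libraries was sequenced in paired ends, per the labels' protocols. The authors deposited 1 table of 24930 gene symbols in FPKM, which correct fragment counts for the length of the transcript and the size of the library. No header states this unit. It was read from the values, which are not whole, sum to different totals and have smallest steps that shrink with transcript length (1800 genes). Kallisto 0.46.1, DESeq2 1.40.1 and the build mm9 stand, with no roles, in the submitters' processing notes. The annotation is not given in the sources used here.

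Limma 3.58.1 in R 4.3.3 was fitted to log2(FPKM + 1) for 12097 genes (a minimum of 1 FPKM in 3 or more libraries), with group means over all 9 libraries and a moderated spread (trend, robust). Adjustment was Benjamini and Hochberg's, over all genes, with a threshold of 0.05. The fit was run on simulated data with planted changes larger than the difference of any member. That run does not speak to differences as small as those of the members. The pseudocount of 1 understates changes of low genes. The mean of both sets, set A and set B were each set against control, and set B against set A. A second model held 1 slope over days. A p-value here measures only the spread between libraries, which may be technical. Copies were found with blastn 2.17.0 in GENCODE M21, and promoters are RefSeq's (GRCm38.p6). These builds differ from mm9, so they served for names, transcripts and promoter letters only.

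The members, the lists and the named genes were chosen with earlier results of these data known. Named by rule were, for each complex, the highest and lowest genes by level, the 2 largest positive and the 2 largest negative differences, every gene that passed, the paralogous isoforms, and from each pathway list up to 3 genes that passed or the one with the smallest p. Chosen after their values were seen were Ndufa1, Ndufa5, Ndufa6, Ndufb4, Cox7a2l, Slc25a5, Nrf1, Epcam, Xist, Cdx2, Ghrl, the genes named for passing without the set B day-9 library, the parts of complexes I and V, and the genes named for not overlapping. Alternatives were a pseudocount of 0.1, no filter, a filter of 5 FPKM, equal totals, weights for libraries, a block for the day, the rule without Cox7a2l, Ndufa4 counted with complex IV, a fit of only the groups compared, and dropping every library in turn. The values of 1 member are not reported here.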

Additional observations from a re-analysis of the deposited data

How the results depend on the processing

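The count of subunit genes that passed was 0 in every comparison, and it stayed 0 in all but 3 of the alternative fits. With library weights, 1 gene passed in both sets against control (Ndufa3) and 3 passed in set B against control (Ndufa3, Ndufa6 and Ndufs4); these fits called 11.9% and 16.8% of all tested genes. Without set B replicate 2, the day-9 library, 1 gene passed in both sets against control (Ndufs4). Leaving out each library in turn gave 0 to 1 passing genes for both sets against control, and 0 for each of the other comparisons. The cause of these calls was not tested. The median difference over the same fits ran from 0.04 to 0.11 for complex I, −0.03 to 0.03 for complex II, 0.08 to 0.16 for complex III, 0.09 to 0.17 for complex IV and 0.02 to 0.08 for complex V. With equal totals these medians were 0.10, 0.04, 0.15, 0.16 and 0.10, in a fit where the median of all genes moved by 0.03. Of 31 named genes, 22 kept their sign in all 17 alternatives, and Atp5f1, Atp5k, Cox6b2, Cox7a1, Ndufs1, Sdha, Sdhb, Sdhc and Uqcrfs1 changed it in some, with values of −0.03 to 0.05 there. The 2 settings that drop the set B day-9 library together with a block or equal totals were chosen after seeing the data. No subunit gene passed there in both sets against control, where 469 and 748 of all tested genes passed.

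Replicate numbers stand for days. With the day as a replicate block, 0 subunit genes passed in each comparison of groups, where 97 of all tested genes passed for both sets against control, 16 for set A, 63 for set B and 0 for set B against set A. The deviations of same-day libraries correlated at −0.24 to 0.61 over 9 pairs, above 0.1 in 2 of them. Those 2 were set A with set B on day 9 (0.398) and on day 10 (0.615). These values do not settle whether the day pairs the libraries.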
